A study of Mus musculus with 9 samples.

Results

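The IκB kinases and kinases that act upstream or downstream of them, with Birc3, are described here in MyC-CaP, a mouse prostate cancer cell line. The cells were treated with recombinant mouse asporin (ASPN), a protein that stromal fibroblasts secrete. The genes were chosen by name, with earlier results of these data known. All 10 of them were found among the 15384 protein-coding genes of the count table: Chuk, Ikbkb and Ikbkg, Ikbke and Tbk1, Map3k8 and Map3k14, and Ripk1, Ripk2 and Birc3. Cells were starved in medium without serum and calcium and collected at time 0 (0hr) or after 12 or 24 hours (12hr, 24hr) with 100 ng/mL ASPN, with 3 libraries per time that the labels call biological replicates and the methods describe as wells plated in triplicate. The sample labels give all 9 libraries as ASPN-treated, and those of 0hr were used as time 0. No library of cells kept for 12 or 24 hours without ASPN was analysed here, so the protein and the hours in culture cannot be told apart in any comparison with time 0. The p-values measure the spread between these wells of a single cell line.

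IκB proteins hold NF-κB transcription factors in the cytoplasm. In the canonical pathway, the IKK complex, made of the catalytic subunits IKKα (Chuk) and IKKβ (Ikbkb) and the scaffold NEMO (Ikbkg), phosphorylates IκB, which is then degraded. Upstream, RIPK1 and RIPK2 carry the signal from death receptors, Toll-like receptors and NOD receptors, and the ubiquitin ligase cIAP2 (Birc3) modifies them. NIK (Map3k14) drives the noncanonical pathway through IKKα, TPL2 (Map3k8) passes IKK activity on to MEK and ERK, and the IKK-related kinases IKKε (Ikbke) and TBK1 phosphorylate interferon regulatory factors. All values below are mRNA levels and do not measure kinase activity.

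The libraries held 41881191 to 52993821 counts (median 44779129), so 3 counts correspond to 0.0566 to 0.0716 CPM, the usual unit of counts relative to the total of a library. CPM values were scaled with TMM factors, which lay between 1.04 and 1.07 at both earlier times and between 0.899 and 0.914 at 24 hours. Of the epithelial markers, Krt8 was present in every library (24.8 to 42.2 CPM). Krt18, Epcam and Cdh1 had at most 22 counts in any library, so these defining markers of luminal epithelium were at or near 0 in these cells. Of markers of other cells, those of leukocytes (Cd68, Cd3e) summed to at most 0.794 CPM and those of endothelium (Pecam1, Cdh5) to at most 0.125 CPM. The fibroblast markers in the table (Col1a1, Pdgfra) summed to 12.8 to 13.9 CPM before ASPN, 11.95 to 12.3 CPM after 12 hours and 8.62 to 9.71 CPM after 24 hours, nearly all of it Pdgfra, and their part in the results was not tested.

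At 12 hours, 3 of the 10 genes rose relative to time 0: Map3k8 4.54-fold, Ikbke 1.60-fold and Ripk2 1.58-fold. The core IKK subunits Chuk, Ikbkb and Ikbkg, with Map3k14 and Ripk1, had log2 fold changes between -0.03 and -0.0042. At 24 hours, Map3k8 was 3.86-fold and Ripk2 1.52-fold above time 0. Genes were called changed at a Benjamini-Hochberg adjusted p-value of at most 0.05 (edgeR's quasi-likelihood test over all tested genes) and a fold change of at least 1.5. Over all tested genes, 1.60% were called in the first comparison (171 higher and 11 lower), 28.8% at 24 hours against time 0 (1374 higher and 1924 lower) and 25.7% between 12 and 24 hours (1184 higher and 1740 lower). With total counts in place of TMM the split was 698 higher and 3008 lower at 24 hours and 484 and 2830 between 12 and 24 hours, and the median log2 fold change of all genes was -0.24 and -0.22. Of the 10 genes, 9 passed the filter on low counts in each comparison, and Birc3 did not. The 9 tested genes had a median log2 fold change of -0.0042 at 12 hours, beside -0.0049 over all 11410 tested genes, and of 0.17 at 24 hours, beside -0.016 over all 11444. The comparisons with time 0 share the time 0 libraries, so their values are given side by side.

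**Figure D1:**
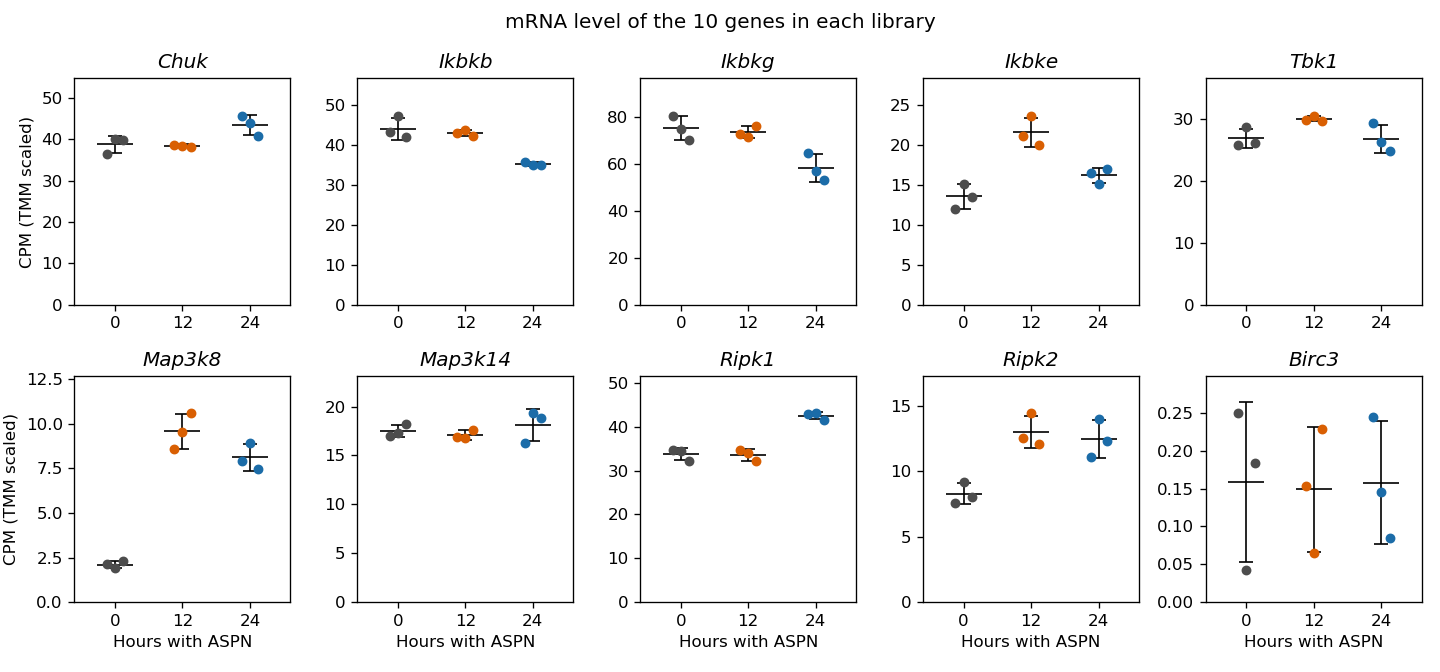
TMM-scaled CPM (y axis, from 0, scaled per panel) of each of the 10 genes at 0, 12 and 24 hours with ASPN (x axis). Points are libraries, and bars are the mean and SD of 3 libraries. The 3 libraries of 12 hours lie above those of time 0 for Map3k8, Ikbke, Ripk2 and Tbk1, and Birc3 stays below 0.25 CPM.

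Map3k8 (ENSMUSG00000024235.11; chromosome 18, 4331327 to 4353015 in GRCm38) encodes the MAP kinase kinase kinase TPL2. It had 103, 88 and 125 counts at time 0, 394, 444 and 463 at 12 hours and 324, 432 and 355 at 24 hours. In CPM these were 2.14, 1.89 and 2.29 at time 0, 8.62, 9.56 and 10.6 at 12 hours and 7.92, 8.95 and 7.49 at 24 hours. Every library of 12 and of 24 hours was above every library of time 0, while the values of 12 and 24 hours overlapped. Its log2 fold change was 2.18 at 12 hours (SE 0.12, adjusted p = 1.15e-09), the value ranked 30 from the top among 11410 genes, and 1.95 at 24 hours (SE 0.13, adjusted p = 1.72e-08), ranked 80 of 11444. From 12 to 24 hours its value was -0.22 (SE 0.10, adjusted p = 0.0718), which did not pass the threshold. Across the 10 other settings tried, which include total-count scaling and offsets for gene length and GC content, it was 2.15 to 2.19 at 12 hours and 1.73 to 1.98 at 24 hours.

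Map3k14 (ENSMUSG00000020941.7; chromosome 11, 103219762 to 103267472), which encodes NIK, had 17.0, 17.3 and 18.2 CPM at time 0, 16.8, 16.7 and 17.6 at 12 hours and 16.3, 19.3 and 18.8 at 24 hours. The 3 times overlapped. The log2 fold change was -0.03 at 12 hours (SE 0.06, adjusted p = 0.821) and 0.057 at 24 hours (SE 0.08, adjusted p = 0.518). NIK is regulated mainly through protein stability, which these counts do not measure. The value at 24 hours depended on the processing: it was -0.165 with total counts and 0.45 after offsets for gene length and GC content (adjusted p = 2.13e-05), short of 1.5-fold under both. Per kilobase of exons, Map3k8 went from 0.468 ± 0.046 CPM per kb at time 0 to 2.13 ± 0.22 after 12 hours, and Map3k14 had 2.67 ± 0.093 and 2.61 ± 0.076 (SD, n = 3 for each). At 24 hours Map3k8 had 1.80 ± 0.17 and Map3k14 2.77 ± 0.25 CPM per kb (SD, n = 3 for each). TPL2 mRNA was thus below NIK mRNA at each time on this scale, by a margin that narrowed from time 0 to 12 hours and was wider again at 24 hours. With the longest transcript as the length, the 12-hour levels of Map3k8 (3.73 ± 0.38; SD, n = 3) and Map3k14 (4.02 ± 0.12; SD, n = 3) CPM per kb overlapped.

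The IKK-related kinases differed from each other in their values. Ikbke (ENSMUSG00000042349.13; chromosome 1, 131254343 to 131279606), which encodes IKKε, the inducible member of this pair, had 12.0, 15.1 and 13.5 CPM at time 0, 21.2, 23.6 and 20.03 at 12 hours and 16.5, 15.1 and 17.0 at 24 hours. The libraries of 12 hours were above all others, and those of 24 hours overlapped time 0 in a single library. Ikbke rose at 12 hours, with 0.68 as its log2 fold change (SE 0.08, adjusted p = 2.06e-05), and leaving out single libraries gave 0.60 to 0.76. At 24 hours it was 0.26 (SE 0.09, adjusted p = 0.0217), short of 1.5-fold. This value ranged from 0.04 with total counts (adjusted p = 0.747) to 0.57 after offsets for longest-transcript length and GC content. From 12 to 24 hours Ikbke was lower, at -0.39 on the log2 scale (SE 0.07, adjusted p = 3.29e-04), with no overlap, short of 1.5-fold except with total counts (-0.62). After the same offsets this difference was -0.08 (adjusted p = 0.32). Exons of Ikbke share 159 bases with the antisense gene Gm28914 and 65 with Gm28913, neither of which is in the table, and whether reads were counted by strand is not given in the sources used here.

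Tbk1 (ENSMUSG00000020115.3; chromosome 10, 121546455 to 121586787), which is broadly and constitutively expressed, had 25.8, 28.7 and 26.3 CPM at time 0, 29.9, 30.5 and 29.8 at 12 hours and 29.4, 26.3 and 24.9 at 24 hours. At 12 hours its 3 libraries were just above those of time 0, which gave 0.16 on the log2 scale (SE 0.05, adjusted p = 0.0494), and leaving out single libraries gave an adjusted p (edgeR, quasi-likelihood) of 0.0142 to 0.186. Over the 10 other settings the adjusted p (edgeR or DESeq2) was 0.0295 to 0.166, and it missed 0.05 in 8 of them. Of all tested genes at 12 hours, 10.3% had an adjusted p of at most 0.05 with no condition on the fold, and 27.0% did not overlap between the times. At 24 hours the log2 fold change was 0.0016 (SE 0.07, adjusted p = 0.986), with a sign that turned under total counts (-0.22), without the filter (-0.0038), after the length and GC offsets (-0.03) and with some of the libraries left out. The TBK1 mRNA level exceeded that of IKKε at each time also per kilobase of exons, at 6.89 ± 0.41 (SD, n = 3) against 1.5 ± 0.17 (SD, n = 3) CPM per kb at time 0.

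Promoter sequences were taken from RefSeq (GRCm38.p6), where 7 of the 10 genes matched an entry by symbol, with 11 start sites in all. Ikbkb and Ripk2 matched none. The promoters of the IKKε and TBK1 genes are shown because the first of these kinases rose at 12 hours by over 1.5-fold and the other did not, and that of Chuk because it holds the NF-κB-type pattern searched. Each sequence is the 250 bases before the start site, 5′ to 3′ on the strand of the gene (minus for all 3), from chr1:131279564-131279813 for Ikbke, chr10:121586795-121587044 for Tbk1 and chr19:44107478-44107727 for Chuk. Capitals mark matches to GGNNNTTCC on either strand.
Ikbke: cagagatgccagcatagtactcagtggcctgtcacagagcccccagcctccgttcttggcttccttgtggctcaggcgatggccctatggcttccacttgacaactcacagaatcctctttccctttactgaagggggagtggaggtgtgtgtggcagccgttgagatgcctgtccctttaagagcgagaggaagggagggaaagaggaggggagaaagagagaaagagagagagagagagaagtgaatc
Tbk1: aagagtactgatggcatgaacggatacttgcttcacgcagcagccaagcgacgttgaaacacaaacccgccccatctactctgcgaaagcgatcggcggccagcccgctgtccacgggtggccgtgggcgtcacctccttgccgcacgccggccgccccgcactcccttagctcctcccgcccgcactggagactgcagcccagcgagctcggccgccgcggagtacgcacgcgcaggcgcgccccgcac
Chuk: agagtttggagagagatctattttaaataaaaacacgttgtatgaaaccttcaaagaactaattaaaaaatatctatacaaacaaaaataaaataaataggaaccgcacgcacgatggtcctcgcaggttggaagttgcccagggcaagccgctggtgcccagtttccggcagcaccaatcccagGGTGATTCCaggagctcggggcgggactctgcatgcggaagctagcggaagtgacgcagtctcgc
The pattern, a loose form of the sites that NF-κB binds, was present in 1 of the 11 promoters, that of Chuk (GGTGATTCC, 65 to 57 bases before the start), and in 15.7% of 32851 promoters searched in the same way. The Ikbke and Tbk1 windows held no match. A match or its absence describes letters in a window and says nothing of binding.

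No subunit of the IKK complex passed the test at 12 hours. Chuk (ENSMUSG00000025199.16; chromosome 19, 44073335 to 44107480) had 36.4, 40.0 and 39.9 CPM at time 0, 38.7, 38.4 and 38.0 at 12 hours and 45.5, 43.9 and 40.9 at 24 hours. Ikbkb (ENSMUSG00000031537.15; chromosome 8, 22659212 to 22706589) had 43.2, 47.3 and 42.03 CPM at time 0, 43.0, 43.9 and 42.3 at 12 hours and 35.9, 35.1 and 34.9 at 24 hours. Ikbkg (ENSMUSG00000004221.16; chromosome X, 74393290 to 74453854) had 80.3, 74.98 and 70.01 CPM at time 0, 72.7, 71.3 and 76.2 at 12 hours and 64.5, 57.0 and 53.1 at 24 hours. For all 3 genes the libraries of time 0 and 12 hours overlapped, whereas at 24 hours Chuk lay above both earlier times and Ikbkb and Ikbkg lay below them. At 12 hours the log2 fold changes were -0.011 for Chuk (SE 0.05, adjusted p = 0.929), -0.03 for Ikbkb (SE 0.05, adjusted p = 0.763) and -0.03 for Ikbkg (SE 0.05, adjusted p = 0.783). Each of these signs turned when single libraries were left out, and no value exceeded 0.08 in size.

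At 24 hours against time 0, the values of the subunits lay on different sides of 0, each short of 1.5-fold. The log2 fold change was 0.17 for Chuk (SE 0.06, adjusted p = 0.0200), -0.32 for Ikbkb (SE 0.06, adjusted p = 1.80e-04) and -0.36 for Ikbkg (SE 0.07, adjusted p = 3.90e-04). Of all tested genes, 70.9% had an adjusted p of at most 0.05 in this comparison without the condition on the fold, and 73.9% did not overlap between the times. Among the 9 tested genes, 7 had such a p and 6 did not overlap, close to these shares. The direction of Chuk turned with total counts (-0.05), and that of Ikbkb turned after offsets for the exon union and GC content (0.09, adjusted p = 0.193). The exons annotated for Ikbkb span 19078 bases in all, whereas its longest transcript has 4845, and with the longest transcript as the length the Ikbkb value was -0.04 (adjusted p = 0.57). Ikbkg was lower under each of the 10 settings, from -0.58 with total counts to -0.26. Exons of Ikbkg share 418 bases with G6pdx on the opposite strand, which went from 169 to 132 CPM between time 0 and 24 hours (log2 fold change -0.34), and the part of this overlap in the Ikbkg value was not tested.

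**Figure D2:**
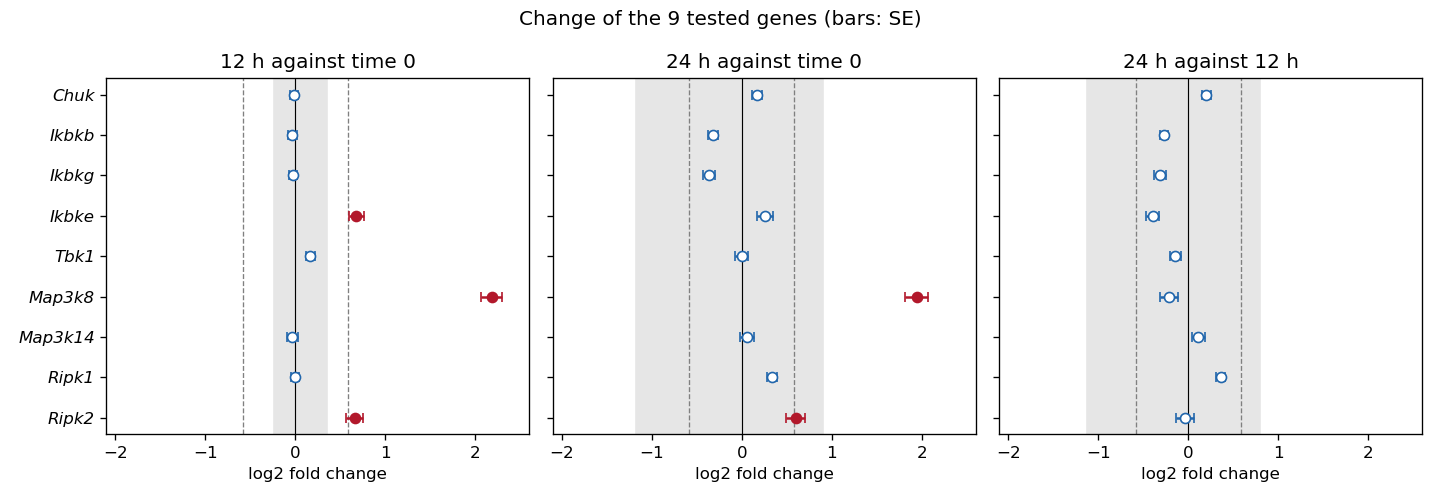
Log2 fold change (x axis) of the 9 tested genes (y axis) in the 3 comparisons, from edgeR with TMM scaling. Points are estimates with SE bars, filled red where called, dashed lines mark 1.5-fold, and the grey band runs from the fifth to the 95th percentile of all tested genes. Map3k8 lies beyond the band at 12 and at 24 hours, Ikbke and Ripk2 at 12 hours, and no gene is called between 12 and 24 hours.

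Ratios of counts within a library do not depend on the scaling between libraries, but they do depend on any correction for gene length and GC content. The log2 ratio of Chuk to Ikbkb was -0.25, -0.24 and -0.08 at time 0, -0.15, -0.19 and -0.15 at 12 hours and 0.34, 0.32 and 0.23 at 24 hours. IKKα counts were thus below IKKβ counts in the 6 earlier libraries and above them in the 3 of 24 hours, a difference of 0.49 from time 0 and 0.47 from 12 hours. After offsets for the exon union and GC content this difference was gone: the log2 fold changes of Chuk and Ikbkb were 0.088 and 0.086 at 24 hours against time 0, and 0.13 for both from 12 to 24 hours. With the longest transcript as the length they were 0.070 and -0.036 against time 0, and 0.11 and 0.015 from 12 to 24 hours. The log2 ratio of Ikbke to Tbk1 had means of -0.99 ± 0.09, -0.48 ± 0.10 and -0.73 ± 0.15 at the successive times (SD, n = 3 for each). Both later times lay above time 0, and they overlapped each other. After the exon union and GC offsets, the log2 fold changes of Ikbke and Tbk1 were 0.52 and -0.027 at 24 hours against time 0, and -0.14 and -0.16 from 12 to 24 hours. The log2 ratio of Map3k8 to Map3k14 had means of -3.06 ± 0.12, -0.84 ± 0.12 and -1.16 ± 0.15 (SD, n = 3 for each), with no overlap between any of the times. After the same offsets, the log2 fold changes of Map3k8 and Map3k14 were -0.22 and 0.50 from 12 to 24 hours, a wider difference than without them. In 2-sided exact permutation tests, each comparison without overlap had p = 0.1, the smallest value that 3 libraries against 3 allow, and an adjusted p of 0.171 over the 12 ratio tests, so this test could not bring these ratios under 0.05.

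**Figure D3:**
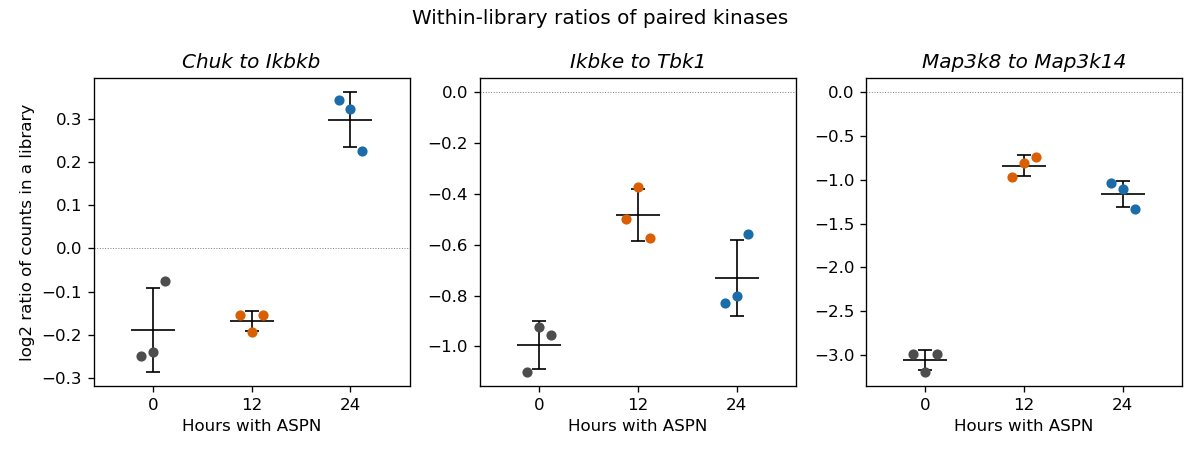
Log2 ratio of counts within a library (y axis) for 3 pairs of kinases at 0, 12 and 24 hours with ASPN (x axis). Points are libraries, and bars are the mean and SD of 3 libraries. Chuk to Ikbkb is below 0 at the first times and above 0 at 24 hours, and Map3k8 to Map3k14 goes from -3.06 to -0.84 at 12 hours.

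Of the adaptor kinases, Ripk2 (ENSMUSG00000041135.15; chromosome 4, 16122733 to 16163647), which relays signals of the NOD receptors, had 7.60, 9.16 and 8.06 CPM at time 0, 12.6, 14.4 and 12.1 at 12 hours and 11.1, 14.0 and 12.3 at 24 hours. All 6 libraries with ASPN for 12 or 24 hours were above all 3 of time 0, and the later times overlapped each other. Ripk2 rose by 0.66 on the log2 scale at 12 hours (SE 0.09, adjusted p = 9.31e-05) and 0.60 at 24 hours (SE 0.11, adjusted p = 2.00e-04), and its value was -0.04 from 12 to 24 hours (SE 0.10, adjusted p = 0.754). Both values are close to the 1.5-fold threshold, a log2 fold change of 0.585. The call at 12 hours was lost without replicate 2 of 12 hours (0.579). That at 24 hours was lost without replicate 1 of time 0 (0.56), without replicate 2 of 24 hours (0.51), with total counts (0.38), and after the length and GC offsets (0.54, or 0.58 with the longest transcript). The adjusted p (edgeR or DESeq2) of Ripk2 stayed at or below 0.00802 in all of these analyses of 12 and 24 hours against time 0. Its sensor Nod1 had 0.718 CPM at time 0, and Nod2 had at most 1 count per library.

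Ripk1 (ENSMUSG00000021408.15; chromosome 13, 34002363 to 34037147), which acts below the TNF receptor in both survival and cell death signaling, had 34.7, 34.5 and 32.2 CPM at time 0, 34.7, 33.9 and 32.1 at 12 hours and 43.0, 43.1 and 41.5 at 24 hours. The libraries of the first times were nearly the same, and those of 24 hours were above them all. Its log2 fold change was -0.0042 at 12 hours (SE 0.05, adjusted p = 0.976), 0.34 at 24 hours (SE 0.05, adjusted p = 5.90e-05) and 0.36 from 12 to 24 hours (SE 0.05, adjusted p = 1.74e-05), short of 1.5-fold in each case. Under total counts the value at 24 hours was 0.12 (adjusted p = 0.0684). Exons of Ripk1 share 241 bases with Serpinb6a on the opposite strand, which went from 152 CPM at time 0 to 163 at 12 hours and 315 at 24 hours, and 511 bases with the processed pseudogene Gm17084. The part of these overlaps in the Ripk1 value was not tested.

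Birc3 (ENSMUSG00000032000.17; chromosome 9, 7848699 to 7873186), a target of NF-κB in many cells, was close to the limit of detection. It had 12, 2 and 10 counts at time 0, 7, 3 and 10 at 12 hours and 10, 7 and 4 at 24 hours. The sums were 24 counts (95% exact Poisson interval 15.4 to 35.7), 20 (12.2 to 30.9) and 21 (13.0 to 32.1), where the intervals cover counting error only. No difference between the times was detectable at this depth. Its close relative Birc2, which encodes cIAP1, had 25.6 ± 1.2 CPM before ASPN, 29.2 ± 0.23 CPM after 12 hours and 16.6 ± 1.7 CPM after 24 hours (SD, n = 3 for each). The log2 ratio of Birc3 to Birc2 lay between -9.30 and -6.21 in all libraries, so cIAP1 mRNA far exceeded cIAP2 mRNA at each time.

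Between genes, levels were compared as CPM per kilobase of annotated exons. At time 0 the order from the top was Ikbkg (9.26 ± 0.63), Chuk (7.62 ± 0.41), Tbk1 (6.89 ± 0.41), Ripk1 (4.05 ± 0.16), Ripk2 (2.94 ± 0.28), Map3k14 (2.67 ± 0.093), Ikbkb (2.32 ± 0.15), Ikbke (1.5 ± 0.17), Map3k8 (0.468 ± 0.046) and Birc3 (0.0317 ± 0.021; SD, n = 3 for each). Of neighbours in this order, Chuk overlapped Tbk1 and Ripk2 overlapped Map3k14. At 12 hours Ripk2 (4.62 ± 0.44) lay above Ripk1 (4.03 ± 0.16), and in the run of Map3k14, Ikbke, Ikbkb and Map3k8 the libraries of neighbouring genes overlapped. At 24 hours Chuk (8.54 ± 0.47) lay above Ikbkg (7.18 ± 0.72) and headed the order. The libraries of Ikbkb, Map3k8 and Ikbke overlapped, with means from 1.80 to 1.85. With the longest transcript as the length, Ikbkb had 9.12 ± 0.57 (SD, n = 3) CPM per kb at time 0, the third highest level, and Chuk (11.1 ± 0.59) came before Ikbkg (10.7 ± 0.74), which it overlapped. Map3k14 (4.12 ± 0.14) then came before Ripk2 (2.95 ± 0.29) at time 0, and at 12 hours Ripk1 (5.19 ± 0.20) came before Ripk2 (4.64 ± 0.45), with overlap. The order of these genes thus depends on the length used.

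No gene of the 9 tested was called between 12 and 24 hours with edgeR or with DESeq2. With edgeR, 6 had an unadjusted p under 0.05, where 8350 of all 11394 tested genes did. An adjusted p of at most 0.05 was found for 5, where 71.3% of all tested genes had such a p. These were Chuk (0.20, SE 0.05) and Ripk1 (0.36), which were higher at 24 hours, and Ikbkb (-0.27, SE 0.05), Ikbkg (-0.31, SE 0.06) and Ikbke (-0.39), which were lower. Tbk1 (-0.14, SE 0.06, adjusted p = 0.0611), Map3k14 (0.11, SE 0.07, adjusted p = 0.181), Map3k8 and Ripk2 did not pass that p. These values depended on the processing. With total counts the adjusted p (edgeR) passed for Tbk1 (-0.36, adjusted p = 2.15e-04), Map3k8 (-0.44, adjusted p = 0.00174) and Ripk2 (-0.26, adjusted p = 0.0278), and Chuk turned to -0.022 (adjusted p = 0.729). After the exon union and GC offsets it passed for Map3k14 (0.50, adjusted p = 3.72e-06) and Tbk1 (-0.16, adjusted p = 0.021), Ikbkb turned to 0.13 (adjusted p = 0.0168), and Ikbke did not pass (-0.14, adjusted p = 0.0984). The median of the 9 log2 fold changes was -0.14, beside 0.0039 over all tested genes.

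Of 36 listed adaptors, ubiquitin enzymes, chaperones and other partners of these kinases, 35 were in the table and 33 were tested at 12 hours. None was called at 12 hours with edgeR or DESeq2. With edgeR, 11 had an unadjusted p under 0.05, where 2437 of all 11410 tested genes did. An adjusted p of at most 0.05 was found for 8, all of them higher, where 10.3% of all tested genes had such a p in either direction. Among these 8 were Nfkb1, whose precursor p105 binds TPL2 (0.57, SE 0.04), and Tank, an adaptor of TBK1 and IKKε (0.47, SE 0.07). Traf2 (0.56, SE 0.06) and Traf3 (0.52, SE 0.04), adaptors that with cIAP1 target NIK for degradation, were also among them. Each of these values was short of 1.5-fold. These 4 were singled out after their values were seen. At 24 hours against time 0, 7 of 32 were called, 6 of them higher, where 28.8% of all tested genes were called, so the number called does not set the partners apart. Cdc37, a kinase co-chaperone of HSP90 (0.86, SE 0.04), Traf2 (0.83, SE 0.06), Mlkl, the effector of necroptosis (0.78, SE 0.07), and Tmem173, which encodes the STING sensor upstream of TBK1 (0.70, SE 0.06), were the highest, and Birc2 was lower (-0.62, SE 0.08). The median over the partners was 0.08 at 12 hours and 0.23 at 24 hours.

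From 12 to 24 hours, 7 of 33 partners were called, near the 25.7% of all tested genes. Birc2 (-0.79, SE 0.07) and Traf3 (-0.74, SE 0.05) fell, and Tmem173 (0.73, SE 0.06), Mlkl (0.72, SE 0.06), Cdc37 (0.69, SE 0.04) and Hsp90ab1 (0.63, SE 0.03) were the highest of 5 that rose. Traf3 had 35.0, 36.3 and 37.1 CPM at time 0, 49.6, 53.6 and 52.3 at 12 hours and 30.0, 31.1 and 30.4 at 24 hours, so it was highest at 12 hours and lowest at 24 hours with no overlap. Traf2 had 17.7, 18.5 and 17.3 CPM at time 0, 26.6, 25.3 and 26.5 at 12 hours and 30.3, 31.3 and 33.0 at 24 hours, higher at each later time. Birc2 had 24.9, 27.0 and 25.03 CPM at time 0, 28.9, 29.4 and 29.1 at 12 hours and 18.1, 14.7 and 17.0 at 24 hours, so like Traf3 it was highest at 12 hours and lowest at 24 hours. The difference between the course of Traf2 and those of Traf3 and Birc2 was not tested.

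For comparison, the 5 NF-κB subunit genes had a median log2 fold change of 1.02 at 12 hours, with 3 called, and 9 tested IκB and A20-type inhibitor genes had a median of 2.14, with 7 called, where 1.60% of all tested genes were called. From 12 to 24 hours the median over the 9 inhibitor genes was -0.72, with 6 called lower. Of the 5 subunit genes, 0 were called with edgeR or DESeq2, where 25.7% of all tested genes were called. With edgeR, 2 of these 5 had an unadjusted p under 0.05, where 8350 of all 11394 tested genes did. Both lists were chosen with earlier results of these data known, so their counts are a description and not an independent test. The difference between these lists and the kinases was not tested.

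The genes whose log2 CPM over the 9 libraries was most like that of each called kinase were found among 10348 genes, as a description over libraries that share 3 times. For Map3k8 they were Cebpd (Pearson's r = 0.989), Ankrd1 (0.989) and Nfkbia (0.987), the gene of IκBα. Nfkbia had means of 92.4, 433.3 and 319.4 CPM at 0, 12 and 24 hours, so both it and Map3k8 stayed well above time 0 at 24 hours. For Ikbke they were Bid (0.957), Tnfsf10, which encodes the death ligand TRAIL (0.945), and Nfkbiz, the gene of the nuclear inhibitor IκBζ (0.940). Nfkbiz had means of 20.3, 199.5 and 64.0 CPM at 0, 12 and 24 hours, with a peak at 12 hours as for Ikbke. For Ripk2 they were Akap12 (0.978), Rnf14 (0.976) and Rhbdf2 (0.975).

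**Figure D4:**
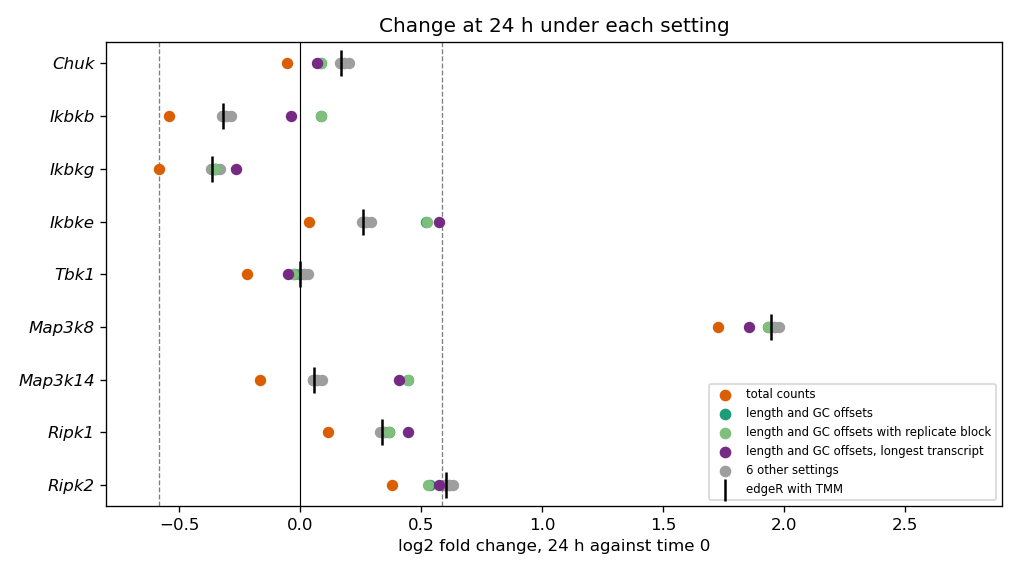
Log2 fold change at 24 hours against time 0 (x axis) of the 9 tested genes (y axis) under each way of processing. Black ticks are edgeR with TMM scaling, colored points are total counts and offsets for length and GC content, grey points are the other settings, and dashed lines mark 1.5-fold. Map3k8 stays between 1.73 and 1.98, while Ikbkb, Chuk, Tbk1 and Map3k14 lie on both sides of 0.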

How the data were processed

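The authors trimmed the reads of TruSeq mRNA libraries with Cutadapt, aligned them with STAR to GRCm38.p6 with the GENCODE vM24 annotation and counted them per gene with featureCounts. The deposited file has the counts of 15384 protein-coding genes as they were, not normalized, and how these genes were chosen is not given in the sources used here. Groups were taken from the sample titles. Some epithelial markers are not reported here. The members and gene lists were chosen with earlier results of these data known. All 10 members were named, and of the partners the called ones with the highest or lowest log2 fold changes, at most 4 in each direction; other partners named with values were chosen after their values were seen.

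For each comparison, the 6 libraries were filtered with filterByExpr, scaled with TMM and tested with edgeR 4.0.16 in R 4.3.3 (quasi-likelihood, no block), with Benjamini-Hochberg adjustment over all tested genes. The scripts were also tested on simulated data. Gene lengths and GC content came from GENCODE M21 of the same assembly, which held 15374 of the genes. The genes most like a called member had a mean of at least 50 counts. Alternatives were DESeq2 1.42.0, RLE, upper-quartile and total-count scaling, no filter, a joint fit of the 9 libraries, a block for the replicate number, loess offsets for length and GC content (span 0.3), the adjusted p alone and leaving out each library. Offsets with the longest transcript were added after the data were seen. Pairing by replicate number was checked from correlations of the deviations over all tested genes. In no pair of libraries of the same time was the chi-square of the counts per degree of freedom below 3.48, so each pair differed by more than sampling noise.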

Additional observations from a re-analysis of the deposited data

Results flagged for a closer look

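The level at 12 hours with ASPN and that at 24 hours differed by the direct test (edgeR's quasi-likelihood test, adjusted p of at most 0.05) for 5 of the 9 tested genes, which is why they are listed here. The log2 fold change from 12 to 24 hours was 0.20 for Chuk, -0.27 for Ikbkb, -0.31 for Ikbkg, -0.39 for Ikbke and 0.36 for Ripk1. These 5 values were short of 1.5-fold. Ikbkb turned to 0.13 after offsets for exon union length and GC content (adjusted p = 0.0168), Chuk turned to -0.022 with total counts (adjusted p = 0.729), and Ikbke was -0.62 with total counts and -0.085 with longest-transcript offsets. Ripk1 was 0.14 with total counts (adjusted p = 0.0235), and Ikbkg was -0.54 with total counts and -0.21 with longest-transcript offsets. In the test with TMM, 71.3% of all tested genes had such a p.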

How the results depend on the processing

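The calls of Map3k8, Ikbke and Ripk2 at 12 hours held under each of the 10 settings with other tests, scalings, filters or offsets, and 2 to 3 of the 10 genes were called with single libraries left out. At 24 hours against time 0, 1 gene (Map3k8) was called with total counts and with the length and GC offsets (alone, with the replicate block or with the longest transcript), and 1 to 2 with single libraries left out. Between 12 and 24 hours, 1 gene (Ikbke) was called with total counts. With the adjusted p alone, 4 of the genes at 12 hours (with Tbk1), 7 at 24 hours against time 0 and 5 between 12 and 24 hours had passed, beside 1178 of all genes at 12 hours, 8119 at 24 hours and 8124 between 12 and 24 hours. Total counts lowered the median log2 fold change of all genes to -0.24 at 24 hours and -0.22 between 12 and 24 hours, and gave 698 genes higher and 3008 lower at 24 hours and 484 and 2830 between 12 and 24 hours, beside 1374 and 1924, and 1184 and 1740, with TMM. The length and GC offsets gave 1518 and 1514 at 24 hours and 1333 and 1311 between 12 and 24 hours.

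Log2 fold changes with the opposite sign at 24 hours against time 0 were -0.053 (Chuk), -0.22 (Tbk1) and -0.165 (Map3k14) with total counts, -0.0038 (Tbk1) without the filter, 0.086 (Ikbkb) and -0.027 (Tbk1) with the length and GC offsets, 0.087 and -0.029 with the block added, and -0.048 (Tbk1) with the longest transcript. Between 12 and 24 hours they were -0.022 (Chuk) and -0.11 (Map3k14) with total counts, 0.13 (Ikbkb) with the offsets with or without the block, and 0.015 (Ikbkb) with the longest transcript. With single libraries left out, the values at 12 hours were -0.053 to 0.011 for Chuk, -0.068 to 0.018 for Ikbkb, -0.079 to 0.024 for Ikbkg and -0.039 to 0.025 for Ripk1, that of Tbk1 at 24 hours was -0.066 to 0.058, and that of Ripk2 between 12 and 24 hours was -0.13 to 0.042. The change of the within-library log2 ratio at 12 hours was -0.0090 to 0.078 for Chuk to Ikbkb and -0.93 to 0.40 for Birc3 to Birc2. The cause of these changes was not tested.

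The replicate numbers of the labels did not pair the libraries: the deviations of same-numbered libraries had a mean correlation of -0.012 (12 hours and time 0), -0.061 (24 hours and time 0) and 0.024 (12 and 24 hours). With the replicate block, 3 of the 10 genes were called at 12 hours, 2 at 24 hours and 0 between 12 and 24 hours, as without it, beside 172, 3247 and 2926 of all genes. At 2 to 12 counts per library, depth limits Birc3.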
